A study of Mus musculus with 8 samples.

Results

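The 37 genes examined here make, elongate, desaturate and esterify fatty acids in the liver, feed sugar carbon into that route, or move cholesterol out of cells, together with the transcription factors SREBP1c, ChREBP and LXR that control many of them. They were chosen by gene symbol for these roles, with earlier results of these data known. Of the 19642 genes in the count table, 35 of the 37 were found and 2 were not analysed here. They comprised 4 genes of transcription factors, 8 of fatty acid synthesis, 7 of elongation and desaturation, 8 of triglyceride and phospholipid synthesis, 3 of glycolysis and sugar entry, and 5 LXR targets, most of them sterol exporters. All 35 passed the filter on low counts, which kept 14214 genes.

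Livers came from 4 WT and 4 N-LKO male mice in the C57BL6 background on chow diet (CD), with 1 RNA library per liver. N-LKO mice carry 2 loxP-flanked alleles of NgBR (gene symbol Nus1), a subunit of the cis-prenyltransferase that makes dolichol, and a Cre driven by the albumin promoter. The study describes the deletion as specific to hepatocytes and names endothelial, stellate and Kupffer cells as still expressing NgBR. N-LKO mice were bred from parents heterozygous for the flanked allele, 1 of which carried the Cre. Whether the WT mice carried a flanked allele or the Cre was not given in the sources used here. How long they ate it is unclear, as titles of the samples say 8 weeks and the treatment entries say 16 weeks. A legend in the supplement of the study gives the shorter time for livers of both genotypes on chow. The comparison addresses whether LXR-driven de novo lipogenesis differed in livers without NgBR, a question the study examined as a source of liver fat. The study reported similar levels of LXR target genes in both genotypes on either diet, unlike earlier reports. Its chow livers may be the ones used here, so the 2 readings may not be independent. Expression is given as CPM, counts scaled to library size with a correction between libraries, and log2 fold changes are N-LKO over WT.

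SREBP1c, the product of Srebf1, is held in the ER membrane by the INSIG proteins and is cut in the Golgi to free the part that enters the nucleus, where it acts on genes of fatty acid synthesis, classically after insulin. ChREBP, the product of Mlxipl, responds to metabolites of glucose and fructose and acts with its partner MLX on genes of glycolysis and lipogenesis, among them Pklr. LXRα (Nr1h3) and LXRβ (Nr1h2) are nuclear receptors for oxysterols that pair with RXR. They act on sterol exporters such as Abca1, Abcg5 and Abcg8 and also on Srebf1, which links the sterol load of the liver to fatty acid synthesis. The activity of all 3 systems is set largely at the protein level, which mRNA counts do not measure.

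The sequences before the transcription starts of Srebf1, Mlxipl and Fasn are shown because these are the genes of the list whose N-LKO livers did not overlap the WT livers and whose windows hold a searched motif and no annotated exon. The shared stretch between Abcg5 and Abcg8 is shown because the 2 genes are transcribed away from each other and had nearly equal differences. They are RefSeq windows of the 250 bases before a start on GRCm38.p6, written 5′ to 3′ along the gene, and capitals mark motifs. The Srebf1 window (start 1 of 3, chr11:60210472-60210721, minus strand) holds CCAAT, the NF-Y element that often stands beside SREBP sites, on the opposite strand 30 bases before the start, although the first transcribed bases of this start are in no GENCODE transcript. The window of start 3 (chr11:60222582-60222831, minus strand), whose first bases are in a GENCODE transcript, holds CCAAT on the strand of the gene 166 bases before the start.
Srebf1 start 1: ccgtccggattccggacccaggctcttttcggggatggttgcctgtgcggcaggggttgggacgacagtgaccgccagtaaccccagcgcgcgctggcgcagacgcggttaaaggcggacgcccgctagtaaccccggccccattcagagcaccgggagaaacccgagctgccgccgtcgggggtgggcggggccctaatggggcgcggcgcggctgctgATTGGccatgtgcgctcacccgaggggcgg
Srebf1 start 3: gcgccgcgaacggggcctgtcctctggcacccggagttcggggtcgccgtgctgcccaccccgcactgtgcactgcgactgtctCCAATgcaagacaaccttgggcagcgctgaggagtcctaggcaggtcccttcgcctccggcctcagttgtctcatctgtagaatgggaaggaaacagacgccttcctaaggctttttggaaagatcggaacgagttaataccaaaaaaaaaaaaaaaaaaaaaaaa
The window of the outer Mlxipl start (chr5:135089640-135089889, plus strand) holds an E-box, CACGTG, 98 bases before the start and a CCAAT element on the opposite strand. The window of the inner start (chr5:135106641-135106890, plus strand), 17001 bases further in, holds a sterol regulatory element of the form TCACNCCAC 136 bases before the start.
Mlxipl start 1: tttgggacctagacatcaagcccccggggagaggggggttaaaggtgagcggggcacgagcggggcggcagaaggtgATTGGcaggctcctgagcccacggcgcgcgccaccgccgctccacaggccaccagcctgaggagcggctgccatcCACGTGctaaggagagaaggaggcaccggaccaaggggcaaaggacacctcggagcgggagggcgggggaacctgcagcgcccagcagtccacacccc
Mlxipl start 2: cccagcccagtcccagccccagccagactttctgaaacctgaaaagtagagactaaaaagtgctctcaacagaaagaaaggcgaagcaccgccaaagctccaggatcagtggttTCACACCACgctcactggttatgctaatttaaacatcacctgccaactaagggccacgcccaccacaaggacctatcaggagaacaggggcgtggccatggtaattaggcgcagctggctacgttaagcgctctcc
The Fasn window (chr11:120824548-120824797, minus strand) holds 3 CCAAT elements, 2 of which overlap.
Fasn: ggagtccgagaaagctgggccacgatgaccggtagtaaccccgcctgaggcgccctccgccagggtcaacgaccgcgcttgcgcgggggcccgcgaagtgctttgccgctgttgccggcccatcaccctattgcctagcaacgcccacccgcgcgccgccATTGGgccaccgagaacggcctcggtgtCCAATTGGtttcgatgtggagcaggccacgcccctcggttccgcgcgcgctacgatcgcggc
Between the start of Abcg5 and the inner of the 2 starts of Abcg8 lie 109 bases (chr17:84683012-84683120, written along the plus strand) with none of the motifs. CCAAT stands in the longer Abcg8 window at 175 and 114 bases before that start.
Abcg5 and Abcg8: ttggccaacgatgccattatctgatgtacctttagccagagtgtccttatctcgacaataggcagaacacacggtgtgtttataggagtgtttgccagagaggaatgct

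On both strands, 29 of the 35 genes had 40 such windows. The sterol regulatory element was in 1.04% of 32536 RefSeq windows and in 1 window of the list, that of the inner Mlxipl start. The E-box was in 6.04% of all windows and in those of 6 listed genes, namely Mlxipl, Slc25a1, Elovl5, Lpin2, Khk and Abca1, of which Mlxipl was the only one with no overlap between the genotypes. The CCAAT element was in 33.8% of all windows and in 17 of the 40, from 16 genes. The ChREBP type of paired E-box (CACGTG on both sides of 5 bases) was in 0 of all windows, the LXR and RXR repeat (AGGTCA on both sides of 4 bases) in 0.0154%, and neither stood before a listed gene. Elements that work with looser spelling, as many LXR and ChREBP sites do, are missed by these letters. The windows of Srebf1 start 1, Fasn and Abca1 hold a looser form of the LXR and RXR repeat on the opposite strand. It reads gggtta, 4 bases and cggtca, and its share of all windows was not counted. The starts of Srebf1 span 12110 bases, and counts per gene do not tell its isoforms SREBP1a and SREBP1c apart.

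Nus1 was at 82.0, 90.4, 90.5 and 89.7 CPM in WT livers 1 to 4 and at 33.3, 36.2, 38.7 and 38.7 CPM in N-LKO livers 1 to 4. That left 41.7% of the mean WT level (log2 fold change -1.26, standard error 0.0748, edgeR adjusted p = 3.06e-05), and the labels fit the targeted gene in all 8 libraries. The counts cover the whole gene, of which exon 1 is flanked, so transcripts of the other exons and of cells without the Cre are both included. Total counts ranged from 15430537 to 18412178 in WT and from 14688396 to 18585392 in N-LKO libraries. The summed level of 9 hepatocyte markers overlapped between the genotypes (80000 to 107000 CPM in WT and 83400 to 99100 CPM in N-LKO livers). So did those of macrophage and Kupffer cell, endothelial cell and adipocyte markers, and the adipocyte gene Cfd was at most 0.883 CPM in any liver. The sums of 9 fibroblast and stellate cell markers overlapped by 1 liver of each genotype (193 to 280 CPM in WT and 276 to 388 CPM in N-LKO livers). At an unadjusted p under 0.05 in edgeR, 7 of the 9 were higher, against 6.87% of all genes. The median log2 fold change of the 9 was 0.84, and those not past that threshold were Lrat (-0.15) and Reln (0.087). Of these markers Lum and Col1a1 rose (log2 fold changes 1.46 and 1.45, edgeR adjusted p = 0.0026 and 0.0444), and with 1 mouse fewer Lum passed in all fits and Col1a1 only without N-LKO replicate 2. The sums of cholangiocyte markers (36.1 to 62.5 CPM in WT and at least 73.3 CPM in each of the N-LKO livers) and of lipid-associated macrophage markers (67.3 to 76.9 against 97.6 to 195 CPM) did not overlap. Spp1 stands in both lists, at 16.1 to 32.5 CPM in WT and 37.4 to 105 CPM in N-LKO livers. All 5 cholangiocyte markers that could be tested had a positive log2 fold change, with a median of 1.01. Among them Epcam rose (1.55, edgeR adjusted p = 0.0293), and with 1 mouse fewer it passed only without N-LKO replicate 1 or 4. The cholangiocyte markers too low to test went different ways. From WT to N-LKO the mean of Cftr was higher (0.177 and 1.01 CPM). That of Krt7 was nearly equal (0.362 and 0.357 CPM) and that of Muc1 lower (0.531 and 0.379 CPM). In whole liver, a change in the number of cells of a type and a change in RNA per cell cannot be told apart.

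Across the list, Srebf1 and Fasn were above every WT liver in the N-LKO livers, Mlxipl and its target Pklr were below every WT liver, and both LXR genes and Abca1 were at about the same level in both genotypes. None of these differences passed the adjusted threshold. In edgeR's quasi-likelihood test 0 of 35 had an adjusted p under 0.05, against 148 of all 14214 genes (1.04%). At an unadjusted p under 0.05, 9 passed (25.7%), 5 higher and 4 lower in N-LKO livers, against 12.8% of all genes, 6.87% higher and 5.9% lower. Scaled by library totals alone, 3 were higher and 7 lower. DESeq2 gave an adjusted p under 0.05 for 3 genes (2.61% of all genes), Mlxipl (0.00622), Srebf1 (0.0355) and Fasn (0.0355), and limma-voom for 0 (0.886% of all genes).

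The genotypes did not overlap for 4 of the 35 genes (11.4%), 2 above and 2 below, against 7.52% of all genes, 4.2% above and 3.32% below. The log2 fold change was positive for 17 genes and negative for 18, with a median of -0.0056 against -0.0033 over all genes, and 49.3% of all genes were positive. For 25 genes (71.4%) it was within 0.25 of 0 in either direction, as for 74.1% of all genes. The median standard error was 0.113 in the list and 0.141 over all genes. In simulated data of the same size, edgeR called 75.5% of genes changed by 1 on the log2 scale, that is by a factor of 2, and 96% of those changed by 2, and smaller changes were not simulated.

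**Figure D1:**
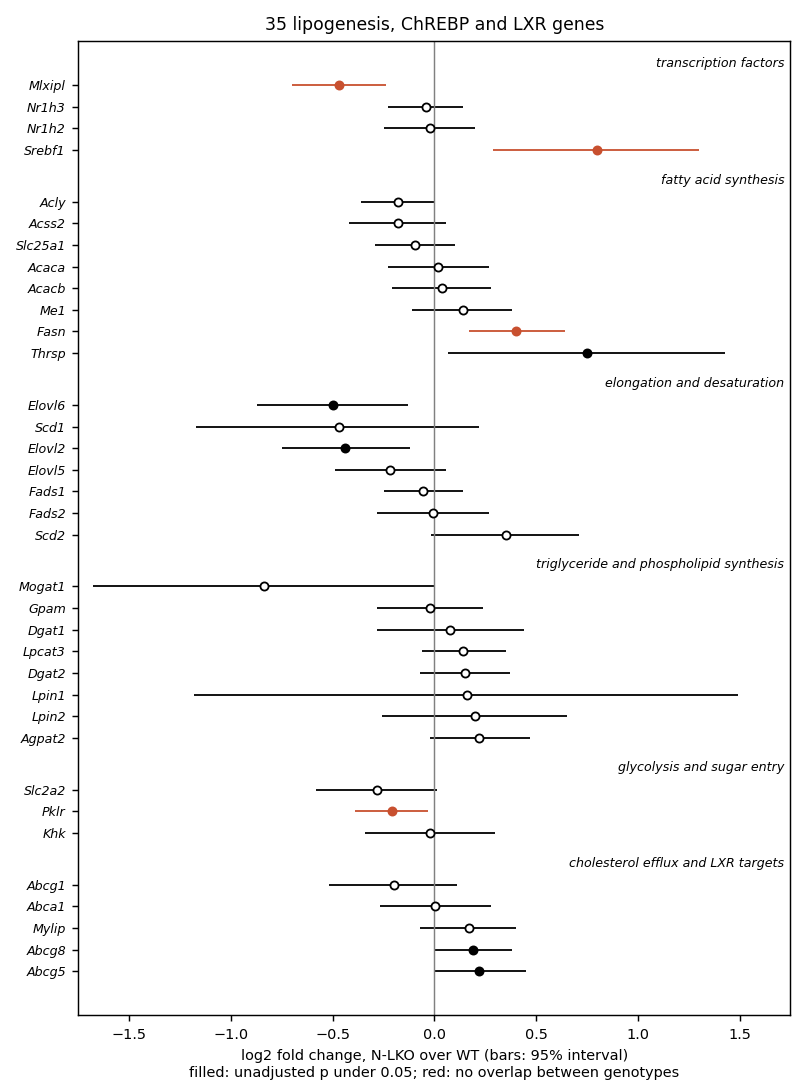
Log2 fold changes (N-LKO over WT) of the 35 genes by role on the x axis with 95% intervals, filled points for an unadjusted p under 0.05 and red for genes whose genotypes did not overlap. Srebf1 (0.80) and Fasn (0.40) lie to the right of 0, Mlxipl (-0.47) and Pklr (-0.21) to the left, and the intervals of Nr1h3, Nr1h2 and Abca1 span 0.

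Among the transcription factors, Srebf1 was at 6.63, 4.13, 10.2 and 6.95 CPM in WT livers and at 11.3, 10.5, 15.4 and 11.2 CPM in N-LKO livers. The lowest N-LKO liver was just above the highest WT liver. Srebf1 had a log2 fold change of 0.80 (standard error 0.228, unadjusted p = 0.00531, edgeR adjusted p = 0.161), and 109 exon bases (1.9%) are shared with Rai1 on the other strand. Its exact two-sided permutation p was 0.0286, the least that 4 against 4 mice allow. Lack of overlap alone fixes that value, and 7.52% of all genes had no overlap. Mlxipl differed in the opposite direction. It was at 55.9, 62.1, 78.6 and 70.0 CPM in WT livers and at 46.2, 44.6, 50.5 and 51.0 CPM in N-LKO livers. All 4 N-LKO livers lay within a narrow range under the lowest WT liver, at 72.1% of the mean of that group. Its log2 fold change of -0.47 (standard error 0.105, 95% interval -0.70 to -0.24) had an unadjusted p of 0.000963, the smallest of the list, and an edgeR adjusted p of 0.0699. When 1 mouse was dropped at a time, that adjusted p was 0.0334 to 0.186 in edgeR, and it passed only without WT replicate 1.

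The LXR genes differed little. Nr1h3 was at 33.3, 32.0, 34.6 and 36.9 CPM in WT livers and at 32.5, 30.9, 31.8 and 37.7 CPM in N-LKO livers. Nr1h2 was at 16.7, 13.6, 12.9 and 14.2 CPM in WT livers and at 15, 13, 14.7 and 13.9 CPM in N-LKO livers. The genotypes overlapped for both, and the 95% intervals of their log2 fold changes were -0.23 to 0.14 for Nr1h3 and -0.25 to 0.20 for Nr1h2. Per kilobase of exon the WT level was 13.6 CPM for Nr1h3, 12.0 CPM for Mlxipl, 4.28 CPM for Nr1h2 and 1.24 CPM for Srebf1, so that Srebf1 was the lowest of the 4 factors by length-scaled level.

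In fatty acid synthesis, Fasn and Thrsp were the 2 of 8 genes with an unadjusted p under 0.05, both higher in N-LKO livers. Fasn, the multifunctional synthase that builds palmitate, was at 41.7, 39.9, 44.3 and 31.3 CPM in WT livers and at 53.8, 54.1, 46.9 and 53.2 CPM in N-LKO livers. N-LKO liver 3, the lowest of its group, was still above the highest WT liver. Fasn thus had a log2 fold change of 0.40 (standard error 0.106, unadjusted p = 0.00291, edgeR adjusted p = 0.122). Thrsp, whose product Spot 14 promotes hepatic lipogenesis, was at 6.14, 6.32, 5.77 and 2.92 CPM in WT livers and at 13.9, 5.28, 6.90 and 9.17 CPM in N-LKO livers. N-LKO liver 2 fell among the WT livers, and the log2 fold change of 0.75 (standard error 0.308, edgeR adjusted p = 0.341) was 0.43 to 0.93 when single mice were dropped, lowest without N-LKO replicate 1.

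The steps before Fasn showed no such difference. Acaca, the cytosolic acetyl-CoA carboxylase that makes malonyl-CoA, was at 40.0, 40.3, 34.9 and 37.1 CPM in WT livers and at 39.1, 42.8, 29.9 and 42.6 CPM in N-LKO livers. Its groups overlapped, with a 95% interval of -0.23 to 0.27 on the log2 scale, and its direction turned under library totals alone (-0.016). Acacb, the mitochondrial form that restrains fatty acid oxidation, was at 0.037. The citrate carrier Slc25a1 was at -0.096, and the acetyl-CoA makers Acly, which splits citrate, and Acss2, which uses acetate, were both at -0.18, while Me1, a source of NADPH, was at 0.14. None of these 5 had an unadjusted p under 0.05 in the main edgeR fit, the smallest being that of Acly (0.0515). For Acly 3 N-LKO livers were under every WT liver. Some alternatives with all mice put Acly under 0.05, as lower. These were library totals, at least 10 counts in every mouse, limma-voom and the block by title number. All 8 N-LKO over WT differences in this group lay between -0.18 and 0.75, with a median of 0.028.

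**Figure D2:**
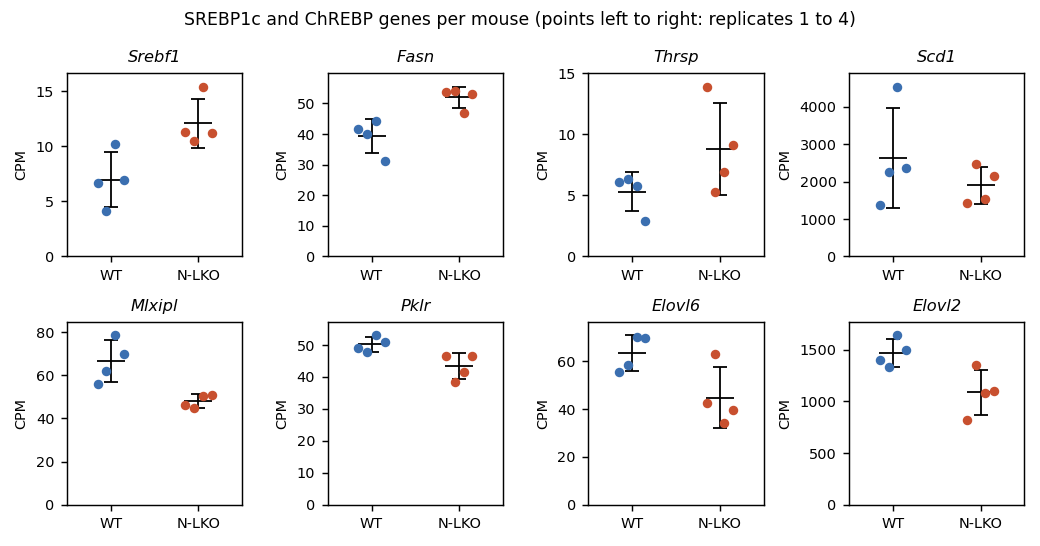
CPM per liver (y axis, from 0) of 8 SREBP1c and ChREBP genes in WT and N-LKO livers, with points from left to right for replicates 1 to 4 and bars for the mean ± SD (n = 4). The 2 groups are apart for Srebf1, Fasn, Mlxipl and Pklr, and N-LKO liver 2 stands with the WT livers for Elovl6 (63.0 CPM) and Elovl2 (1350 CPM).

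In elongation and desaturation 6 of 7 log2 fold changes were negative, with a median of -0.22, the summed levels overlapped (5000 to 8660 CPM in WT and 4180 to 6220 CPM in N-LKO livers), and 2 genes had an unadjusted p under 0.05. Elovl6, which extends palmitate to stearate, was at 55.5, 58.5, 70.1 and 69.5 CPM in WT livers and at 42.5, 63.0, 34.0 and 39.6 CPM in N-LKO livers. Of the N-LKO livers 3 were under every WT liver and N-LKO liver 2 was among them. Its log2 fold change was -0.50 (standard error 0.169, edgeR adjusted p = 0.226), and without N-LKO replicate 2 it was -0.71 with an edgeR adjusted p of 0.0208. Elovl2, which elongates polyunsaturated fatty acids on the route to docosahexaenoic acid, was at 1400, 1330, 1640 and 1500 CPM in WT livers and at 815, 1350, 1080 and 1100 CPM in N-LKO livers (log2 fold change -0.44, standard error 0.142, edgeR adjusted p = 0.217). N-LKO liver 2 again lay among the WT livers and the other N-LKO livers under them. Elovl5, another elongase of polyunsaturated fatty acids, was at -0.22.

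Scd1, the stearoyl-CoA desaturase that makes oleate, was at 1370, 2270, 4540 and 2370 CPM in WT livers and at 1430, 2470, 1540 and 2160 CPM in N-LKO livers. The WT livers alone spanned the N-LKO livers, chiefly through WT liver 3. The log2 fold change of -0.47 (standard error 0.314, 95% interval -1.17 to 0.22) shrank to -0.078 without that mouse. Scd2, its close relative, was far lower, at 4.31 to 5.90 CPM in WT and 4.88 to 7.54 CPM in N-LKO livers (log2 fold change 0.35, unadjusted p = 0.0584). The desaturases of polyunsaturated fatty acids, Fads1 (-0.055) and Fads2 (-0.0056), differed least of this group. Per kilobase of exon, Scd1 (539 CPM), Elovl5 (450 CPM) and Elovl2 (371 CPM) had the highest mean WT levels of the 35 genes.

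Of the 8 genes of triglyceride and phospholipid synthesis, 0 had an unadjusted p under 0.05 in the main edgeR fit. Some alternatives with all mice put Mogat1 under it, as lower, and a replicate block put Agpat2, Lpin1 or Lpin2 under it, as higher. In the main fit 6 log2 fold changes were positive, and the median of the 8 was 0.15. Gpam, which starts glycerolipid synthesis, was at 163, 201, 187 and 188 CPM in WT livers and at 154, 225, 169 and 180 CPM in N-LKO livers. Dgat2, which adds the last acyl chain, had log2 CPM of 6.75, 7.07, 6.98 and 6.96 in WT livers and 7.21, 6.90, 6.98 and 7.25 in N-LKO livers. The groups overlapped for both, with 95% intervals of -0.28 to 0.24 for Gpam and -0.071 to 0.37 for Dgat2. Agpat2 (0.22) adds the second acyl chain, Lpin1 (0.16) and Lpin2 (0.20) are phosphatidate phosphatases, and Dgat1 (0.079) is the other enzyme of the last step. Lpcat3 (0.14) is an LXR target that puts polyunsaturated chains into phospholipids. None of these was past the threshold in the main fit.

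Lpin1 varied more among WT livers than any other gene of the list. It was at 46.4, 393, 72.7 and 81.8 CPM in WT livers and at 137, 155, 86.0 and 284 CPM in N-LKO livers. WT liver 2 was the highest of all 8, and without it the log2 fold change was 1.31 in place of 0.16, with an edgeR adjusted p of at least 0.168 whichever mouse was dropped. Mogat1, an acyltransferase known for its rise in fatty liver, had the lowest level of the list by length. It was at 0.748, 1.13, 0.951 and 0.883 CPM in WT livers and at 0.397, 0.990, 0.332 and 0.339 CPM in N-LKO livers. As with Elovl6, N-LKO liver 2 lay among the WT livers and the other N-LKO livers under them. Its log2 fold change of -0.84 (standard error 0.380, unadjusted p = 0.0501, edgeR adjusted p = 0.391), which was -1.35 without N-LKO replicate 2, rests on as few as 5 counts in a liver, and 12.8% of the exon bases of Mogat1 are shared with a gene on the other strand.

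All 3 genes of glycolysis and sugar entry had negative log2 fold changes. Pklr, the liver pyruvate kinase and a classical ChREBP target, was at 49.2, 47.7, 53.1 and 50.8 CPM in WT livers and at 46.6, 38.5, 41.5 and 46.7 CPM in N-LKO livers. The genotypes did not overlap but nearly touched, and the log2 fold change was -0.21 (standard error 0.0816, unadjusted p = 0.0251, edgeR adjusted p = 0.299). Hcn3 on the other strand covers 22.0% of the exon bases of Pklr, so some reads could belong to either gene. Slc2a2, the glucose transporter GLUT2, was at 215 to 327 CPM in WT and 191 to 249 CPM in N-LKO livers (-0.28, unadjusted p = 0.0591). Khk, the fructokinase, was at -0.024.

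The LXR targets of cholesterol handling were close to their WT levels. Abca1, which loads cholesterol onto apolipoprotein A-I, was at 294, 221, 221 and 211 CPM in WT livers and at 249, 267, 197 and 238 CPM in N-LKO livers. The groups overlapped widely, with a 95% interval of -0.27 to 0.28 on the log2 scale. Its log2 fold change of 0.0050 turned to -0.030 under library totals alone and to -0.0037 without the filter. Abcg1, which passes cholesterol to HDL, was at -0.20 and Mylip, which marks the LDL receptor for breakdown, at 0.17, and neither had an unadjusted p under 0.05.

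Abcg5 and Abcg8, whose products pair as the transporter that secretes sterols into bile, both had an unadjusted p just under 0.05 and were higher in N-LKO livers. Abcg5 was at 26.0, 22.1, 29.0 and 25.4 CPM in WT livers and at 32.8, 30.2, 26.3 and 30.5 CPM in N-LKO livers. Abcg8 was at 31.8, 31.5, 36.4 and 36.8 CPM in WT livers and at 37.2, 42.2, 36.5 and 39.8 CPM in N-LKO livers. In both genes N-LKO liver 3 fell below the highest WT liver, and the other N-LKO livers were above it. The log2 fold changes were 0.22 for Abcg5 (edgeR adjusted p = 0.388) and 0.19 for Abcg8 (edgeR adjusted p = 0.381), and neither kept an unadjusted p under 0.05 with library totals, no filter or DESeq2. The 2 genes are not independent measurements, since they share 82 exon bases on opposite strands and the stretch printed above, which lies inside the gene model of Abcg8.

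**Figure D3:**
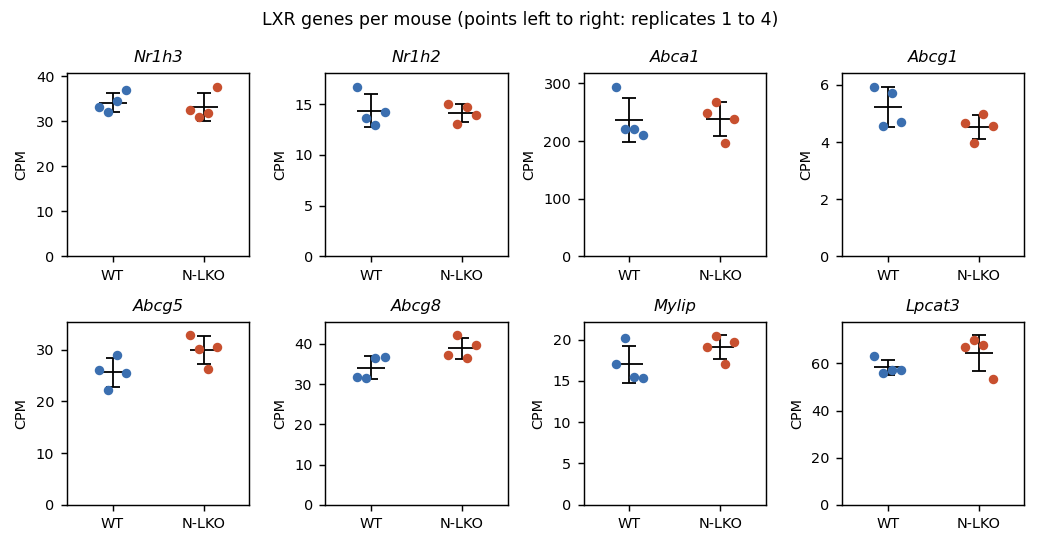
CPM per liver (y axis, from 0) of the LXR genes and 6 targets, with points from left to right for replicates 1 to 4 and bars for the mean ± SD (n = 4). The groups overlap in all 8 panels, and N-LKO livers lie mostly above WT livers for Abcg5 and Abcg8.

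The spread among mice of 1 genotype was not the same for all genes. The coefficient of variation in WT livers was 110% for Lpin1, 51.0% for Scd1, 35.8% for Srebf1 and 30.3% for Lpin2, and 4.56% for Acly, the least variable. WT liver 3 was the highest WT liver for 14 of the 35 genes, among them Srebf1, Mlxipl and Scd1, and was above the WT mean of log2 CPM for all 7 elongation and desaturation genes. Genes of the fasting response had their lowest WT levels in that mouse in several cases. Igfbp1, a liver gene that insulin represses, was at 1070, 741, 73.6 and 295 CPM in WT livers and at 357, 188, 205 and 333 CPM in N-LKO livers. Pck1, the gluconeogenic enzyme, was at 4160, 4200, 2350 and 3760 CPM in WT livers and at 2980, 2840, 2110 and 3340 CPM in N-LKO livers. The sum over 9 fasting genes was 7890 to 11000 CPM in WT and 7330 to 8830 CPM in N-LKO livers, and 1 of them fell, Fgf21 (log2 fold change -0.93, edgeR adjusted p = 0.0224). When single mice were dropped, Fgf21 passed only without WT replicate 2 or N-LKO replicate 1, and its edgeR adjusted p was otherwise up to 0.0785.

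N-LKO liver 2 was the highest N-LKO liver for 14 genes and the lowest for 12. Without it the genotypes did not overlap for 10 of the 35 genes against 12.8% of all genes, and without WT replicate 2 for 7 against 10.9%. The 10 was the largest count with any 1 mouse left out. N-LKO liver 2 was noticed in genes of this same list, and the share of all genes was computed for these 2 mice only. Of 12 clock genes, which follow the hour of collection, 0 had an adjusted p under 0.05 in edgeR and 3 had an unadjusted p under 0.05, against 12.8% of all genes. Nr1d1, which encodes a circadian repressor, was at 19.8 to 32.7 CPM in WT and 7.88 to 19.4 CPM in N-LKO livers (log2 fold change -1.18, edgeR adjusted p = 0.0632). An alternative with all mice gave Nr1d1 an adjusted p under 0.05. The others of these 3 were Dbp (log2 fold change -1.02) and Cry1 (0.50). The part of feeding state, hour of collection and the non-hepatocyte markers in the values of the 35 genes was not tested.

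**Figure D4:**
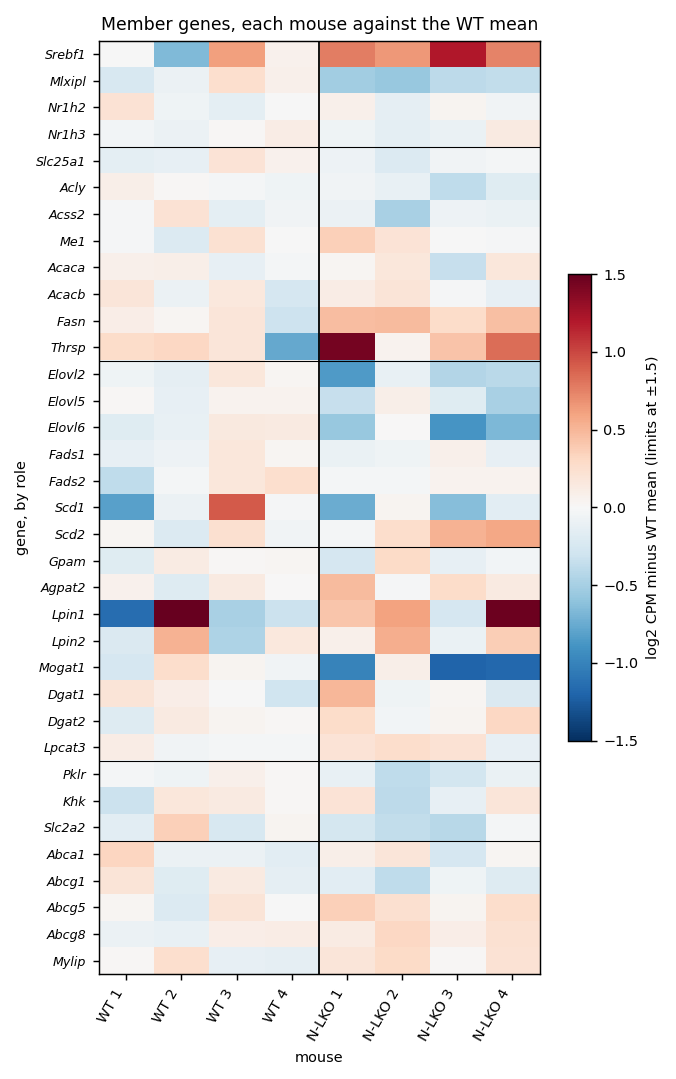
Log2 CPM of each of the 35 genes (rows, by role) in each liver (columns) minus the mean of the 4 WT livers, on a colour scale limited to 1.5 in either direction. Srebf1 and Fasn are red and Mlxipl blue in all 4 N-LKO livers, N-LKO liver 2 is paler than the other N-LKO livers for Elovl2, Elovl6 and Mogat1, and Lpin1 and Scd1 vary most among WT livers.

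Of 80 further genes of the same pathways, 74 could be tested. Without overlap between the genotypes, 4 of them were above and 1 below WT, against 4.2% and 3.32% of all genes. In edgeR 1 rose and 0 fell, against 0.823% of all genes that rose and 0.218% that fell, and at an unadjusted p under 0.05, 10 were higher and 3 lower, against 6.87% of all genes that were higher and 5.9% that were lower, with a median log2 fold change of -0.025. The gene that rose was Insig1, whose product retains the SREBP precursors in the ER and whose transcription SREBPs drive. It was at 26.7, 29.8, 27.5 and 33.6 CPM in WT livers and at 37.8, 59.3, 57.0 and 62.0 CPM in N-LKO livers. Every N-LKO liver was above every WT liver. For Insig1 the log2 fold change was 0.88 (standard error 0.146, edgeR adjusted p = 0.0180), and the edgeR adjusted p went above 0.05 in 3 of the 8 fits with 1 mouse fewer, those without WT replicate 2 (0.0536), WT replicate 3 (0.0607) and N-LKO replicate 3 (0.0608).

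The rest of the SREBP machinery gave a median of 0.14 over 14 genes with Insig1 included. Mbtps2, the site-2 protease that frees SREBP from the membrane, was at 0.32, and Sp1, a partner of SREBP at promoters, at 0.22, both with an unadjusted p under 0.05. Srebf2, the sterol-directed SREBP, was at 0.24 (95% interval -0.066 to 0.55), Insig2, the isoform that prevails in fasted liver, at 0.34 (-0.022 to 0.71), and Scap, the SREBP escort, at -0.096 (-0.29 to 0.096). On the ChREBP side, Txnip, a thioredoxin-binding protein and ChREBP target, was at 151, 129, 96.9 and 117 CPM in WT livers and at 57.7, 99.9, 104 and 95.5 CPM in N-LKO livers. The groups overlapped at WT liver 3, and the log2 fold change was -0.47 (edgeR adjusted p = 0.314), or -0.30 without N-LKO replicate 1. It was the 1 of 13 genes of ChREBP partners and sugar handling with an unadjusted p under 0.05, and Mlx (0.13) was not past it.

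Among 15 LXR partners, co-repressors and other targets, 2 were higher and 2 lower at an unadjusted p under 0.05. Pltp, an LXR target that transfers phospholipid between lipoproteins, was at 11.3, 12.3, 19.9 and 15.5 CPM in WT livers and at 5.39, 9.97, 8.49 and 7.47 CPM in N-LKO livers. Lpl, the lipoprotein lipase, was at 26.9, 32.7, 22.0 and 31.1 CPM in WT livers and at 39.0, 36.4, 57.9 and 37.3 CPM in N-LKO livers. These 2 LXR targets lay apart in opposite directions. The log2 fold change was -0.91 for Pltp (edgeR adjusted p = 0.0819, DESeq2 adjusted p = 0.00343) and 0.60 for Lpl (edgeR adjusted p = 0.152, DESeq2 adjusted p = 0.0375). Lpl is also 1 of the 7 lipid-associated macrophage markers, of which Gpnmb, Mmp12 and Spp1 rose (log2 fold changes 3.47, 3.47 and 1.51 in edgeR). In that list Cd9 (-0.012) and Fabp5 (-0.037) were near 0. Gpnmb and Mmp12 were close to the floor in WT livers, at means of 0.309 and 0.278 CPM. With 1 mouse fewer, Gpnmb and Mmp12 passed in all fits, and Spp1 passed only without WT replicate 3 or N-LKO replicate 1, with an edgeR adjusted p otherwise up to 0.0964. Cyp7a1, the rate-limiting enzyme of bile acid synthesis and an LXR target in mice, was at 0.69, and Nr0b2, which encodes its repressor SHP, at -1.72 (edgeR adjusted p = 0.346 and 0.257). Without N-LKO replicate 4 the value for Cyp7a1 was 0.42.

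Among further fatty acid enzymes, Acsl4, which activates arachidonic acid, was at 84.9, 90.1, 71.6 and 72.2 CPM in WT livers and at 101, 109, 102 and 94.1 CPM in N-LKO livers. All N-LKO livers were above all WT livers (log2 fold change 0.35, edgeR adjusted p = 0.119, DESeq2 adjusted p = 0.0360). Elovl1 (0.20) also did not overlap, and Mid1ip1 (0.59, or 0.35 without N-LKO replicate 3), the relative of Spot 14 that activates acetyl-CoA carboxylase, had an unadjusted p of 0.0472. Among glycerolipid enzymes, Gpat3 was at 0.58 and Lpcat2 at 0.89, both with an unadjusted p under 0.05, while 8 of the 11 tested had negative log2 fold changes. The 4 tested genes of NADPH supply were all positive, at 0.11 to 0.35, and 0 of them had an unadjusted p under 0.05 in edgeR.

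**Figure D5:**
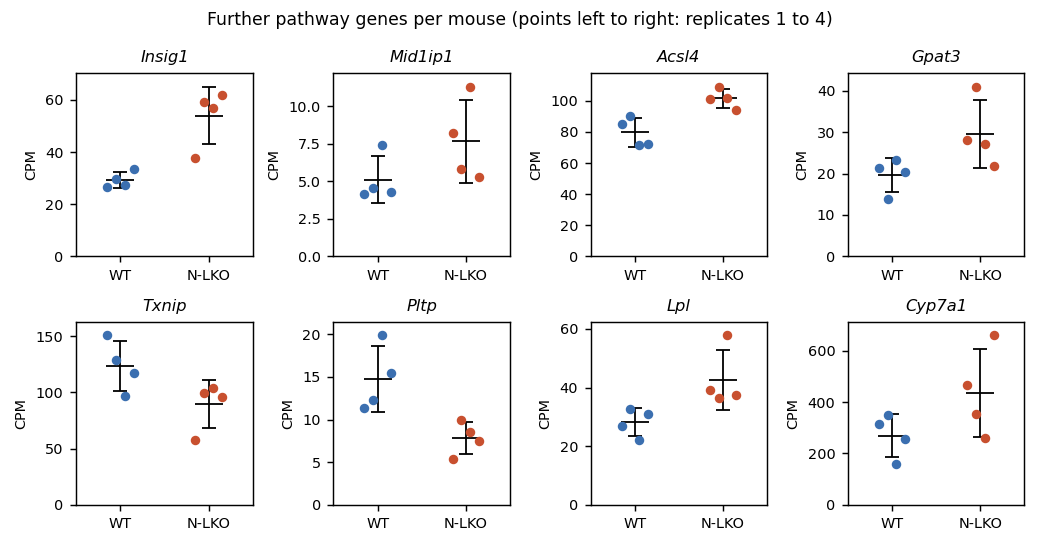
CPM per liver (y axis, from 0) of 8 further pathway genes in WT and N-LKO livers, with points from left to right for replicates 1 to 4 and bars for the mean ± SD (n = 4). Insig1, Acsl4 and Lpl lie higher and Pltp lower in all N-LKO livers, and Mid1ip1, Gpat3, Txnip and Cyp7a1 overlap.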

How the data were processed

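Liver RNA of 8 mice was sequenced after rRNA removal, with a kit the labels name as one for small RNA. The authors deposited expected counts, estimated reads per gene that need not be whole, and 52.3% of genes had a decimal value in at least 1 mouse. The study's methods name TopHat2 and cuffdiff, and the submitters' processing notes name STAR, Partek and mm9. The deposited gene coordinates are those of GRCm38, since 99.5% of 19194 starts equal those of GENCODE M21, and all positions given here are on that build. The counting program, annotation and use of strand are not given in the sources used here, so genes that overlap on opposite strands are uncertain. The labels call the 4 livers of a genotype biological replicates. No 2 libraries agreed within sampling noise.

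Counts were rounded and filtered by edgeR 4.0.16 filterByExpr (minimum count 10, minimum total 15), scaled by TMM and tested in R 4.3.3 with glmQLFit and glmQLFTest, with genotype as the only term. P-values were adjusted over all 14214 genes by the Benjamini-Hochberg method, and 0.05 was the threshold. Log2 CPM used a prior count of 2, and for single values the exact permutation test over mice was two-sided. On simulated counts with 2-fold and 4-fold changes, 14043 genes were tested and edgeR made 10 false calls, DESeq2 30 and limma-voom 11. Alternatives tried were DESeq2 1.42.0, RLE scaling, scaling by library totals only, keeping all genes or just those with 10 or more counts in each mouse, limma 3.58.1 voom, replicate numbers as a block, and leaving out each mouse. Residuals of mice with the same number correlated at -0.085 to 0.063 by title and -0.009 to 0.166 by library name. Such low values gave no clear sign of pairing but cannot exclude it.

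The 37 genes and all other lists were chosen with earlier results of these data known. A gene of the list was given in every mouse where its unadjusted p was under 0.05, where the genotypes did not overlap, where an alternative with all mice called it, or where it stood among 12 central genes (Srebf1, Mlxipl, Nr1h2, Nr1h3, Acaca, Fasn, Scd1, Gpam, Dgat2, Pklr, Abca1, Mogat1), and the further pathway genes were named where called or at an unadjusted p under 0.05. Lpin1, Scd2, Slc2a2, Srebf2, Insig2, Scap, Mlx and the marker genes were named after their values were seen. Motifs were searched on both strands of RefSeq windows of 250 bases before each start. The result for 1 further gene is not reported here.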

Additional observations from a re-analysis of the deposited data

Results flagged for a closer look

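In groups of 4 livers, a liver was picked out when its gap to the nearest other, over the range of the group, passed the 95% critical value of Dixon's test. Among 98 groups (Nus1, the 35 genes and 13 further pathway genes in each genotype) this picked out 13 livers, with 4.9 expected by chance at 1 in 20. All values are log2 CPM. Low livers were WT replicate 1 for Nus1 (6.36, nearest other 6.49), WT replicate 4 for Thrsp (1.61, nearest 2.56), N-LKO replicate 2 for Acss2 (5.14, nearest 5.52), N-LKO replicate 3 for Fasn (5.56, nearest 5.74) and N-LKO replicate 4 for Lpcat3 (5.74, nearest 6.07) and Mbtps2 (3.84, nearest 4.15). N-LKO replicate 1 was low for Insig1 (5.24, nearest 5.84) and Txnip (5.85, nearest 6.58). High livers were N-LKO replicate 2 for Mogat1 (0.15, nearest -0.95), N-LKO replicate 3 for Lpl (5.86, nearest 5.29), WT replicate 3 for Mid1ip1 (2.91, nearest 2.23), and WT replicate 1 for Abca1 (8.20, nearest 7.79) and Sp1 (5.95, nearest 5.68). Fasn and Insig1 in these low N-LKO livers were still above every WT liver.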

How the results depend on the processing

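Nus1 stayed called in every alternative, at -1.30 to -1.22 with 1 mouse left out. The genes of the list called went from 0 to 3 with DESeq2 (Srebf1, Mlxipl and Fasn), and to 0 to 1 with 1 mouse left out (Mlxipl without WT replicate 1, Elovl6 without N-LKO replicate 2). Those higher at an unadjusted p under 0.05 went from 5 to 3 with library totals, no filter or DESeq2. They went to 7 with the replicate block by library number and to 3 to 6 with 1 mouse left out. Those lower went from 4 to 7 with library totals. Genes without overlap went from 4 to between 4 and 10. Further pathway genes called went from 1 to 4 with DESeq2 (Insig1, Pltp, Lpl and Acsl4) and to 0 to 2 with 1 mouse left out. All genes called went from 148 to 98 with at least 10 counts in every mouse, to 371 with DESeq2 and to 71 to 173 with 1 mouse left out, under 100 without WT replicate 2 (83), 3 (91) or 4 (71) or N-LKO replicate 3 (76).

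With the replicate block by title number 1 gene of the list was called, Srebf1 (edgeR adjusted p = 0.0488), and with the block by library number 0 were called in edgeR. The block changed no other call of the list. The labels do not say that a number pairs mice, so the main fit had no block.

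Signs turned for 10 of the 35 genes, none further than 0.16 from 0 with all mice. Acaca was at -0.016 with library totals, Abca1 at -0.030 with library totals and -0.0037 with no filter, and Fads2 at 0.013 with limma-voom and 0.014 with either replicate block. With 1 mouse left out the log2 fold changes ranged from -0.031 to 0.12 for Acaca, -0.043 to 0.097 for Acacb, -0.072 to 0.060 for Nr1h2, -0.099 to 0.0047 for Fads1, -0.12 to 0.083 for Fads2, -0.14 to 0.049 for Gpam, -0.24 to 1.31 for Lpin1, -0.093 to 0.17 for Dgat1, -0.12 to 0.088 for Khk and -0.051 to 0.13 for Abca1. The cause was not tested. Depth limits Mogat1 most, with as few as 5 counts in a liver.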
